A study of Mus musculus with 6 samples.

Results

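The immediate early response genes described here are 10 genes of the mouse ear skin transcriptome: Fos, Fosb, Jun, Junb, Egr1, Egr2, Egr3, Atf3, Ier2 and Btg2. They were chosen by symbol from the deposited table of 18422 genes, and all 10 were counted deeply enough to be among the 14866 genes tested. The libraries were made from poly(A) RNA of ear skin at postnatal day 21. The 3 libraries called ecko came from mice whose endothelial cells had lost Vegfr2 (official symbol Kdr). This receptor tyrosine kinase carries most VEGF-A signalling in those cells. The 3 control libraries came from littermates that kept the gene. Mice of both groups had received tamoxifen, the drug that starts the deletion. The Cre line, the tamoxifen schedule of these mice and the handling of the ears before freezing are not stated in the labels. Nothing in the labels gives animal numbers, so p-values speak only of the spread among these 6 samples.

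Immediate early genes are transcribed within minutes of a signal, with no need for new protein. Growth factors, stretch, wounding and tissue handling all reach them through ERK and p38 kinases, serum response factor with its ETS partners, and CREB. Fos and Jun proteins pair to form the AP-1 transcription factor, EGR proteins are zinc finger factors, and the transcripts of most members are short-lived. In endothelial cells VEGF-A acting on VEGFR2 is a known inducer of EGR genes, and in epidermis AP-1 takes part in keratinocyte differentiation.

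The promoters of 4 members are shown because these genes take different places in the results: Fos had the largest fold change, Btg2 alone passed the test, Junb followed the mean pattern of the set closely and Jun had the smallest fold change. Each stretch is the 250 bases before the start site in RefSeq on GRCm38.p6, read 5′ to 3′ on the gene's strand, and none of the 4 overlaps an annotated exon. Capitals mark matches, on either strand, to TGACGTCA (the full cyclic AMP response element), its core TGACGT, the TATA box TATAAA and CCAAT.
Fos, chr12:85473640-85473889, plus strand: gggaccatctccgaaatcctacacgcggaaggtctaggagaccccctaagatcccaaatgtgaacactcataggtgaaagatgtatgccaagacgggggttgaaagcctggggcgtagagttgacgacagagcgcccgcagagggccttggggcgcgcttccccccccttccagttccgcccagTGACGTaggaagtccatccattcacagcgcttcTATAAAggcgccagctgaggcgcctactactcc
Btg2, chr1:134079156-134079405, minus strand: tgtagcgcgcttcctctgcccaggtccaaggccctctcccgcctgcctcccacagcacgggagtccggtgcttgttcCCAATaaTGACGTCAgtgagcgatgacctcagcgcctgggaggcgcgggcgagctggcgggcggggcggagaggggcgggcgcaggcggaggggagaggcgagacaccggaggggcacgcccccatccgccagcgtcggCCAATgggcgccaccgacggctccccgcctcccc
Junb, chr8:84978749-84978998, minus strand: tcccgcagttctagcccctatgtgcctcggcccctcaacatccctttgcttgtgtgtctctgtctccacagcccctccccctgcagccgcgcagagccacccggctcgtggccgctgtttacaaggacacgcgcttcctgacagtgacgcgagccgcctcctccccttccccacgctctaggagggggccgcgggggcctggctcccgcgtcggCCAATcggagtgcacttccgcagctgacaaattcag
Jun, chr4:95052223-95052472, minus strand: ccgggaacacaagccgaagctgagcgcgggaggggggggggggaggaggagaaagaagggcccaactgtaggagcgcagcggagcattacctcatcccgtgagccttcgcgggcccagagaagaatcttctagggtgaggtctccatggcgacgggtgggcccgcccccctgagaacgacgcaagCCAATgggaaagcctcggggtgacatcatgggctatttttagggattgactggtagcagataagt

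The full element TGACGTCA lay 166 to 159 bases before the Btg2 start, and 1.55% of 32851 RefSeq starts held it in a window of the same length. The core TGACGT, which is part of that element, lay 66 to 61 bases before the Fos start (6.47% of starts; also found before starts of Atf3 and Egr2), and the Fos TATA box lay 33 to 28 bases before it (12.4% of starts). Of the 4 printed windows, CCAAT matched in those of Btg2, Junb and Jun (33.8% of starts). The CArG box, the site of serum response factor, matched in 1.47% of starts. It was found before 4 of the 5 Egr2 starts, but several of these windows overlap and hold the same site, CCATATATGG. That site lay 72 to 63 bases before 1 of the starts. The CArG box was found in none of the 4 printed windows or those of Fosb and Atf3. The AP-1 site TGANTCA (6.75% of starts) matched no window of these 7 members. Only exact matches within 250 bases were sought, so variant sites and sites farther from the start were missed. The Jun window, for example, holds tgacatca, which is close to TGACGTCA but is not an exact match.

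All 10 members had a log2 fold change above 0 in ecko skin, as did 49.5% of all genes tested, 1 of the 10 passed the test, and single libraries within each group differed widely. Levels are given as CPM, read counts scaled to the TMM-adjusted total of each library. Control 1 was the lowest control in 10 of 10 members (34.7% of genes) and ecko 1 the highest ecko library in 10 of 10 (34.9% of genes). Both held at once in 11.7% of all genes tested. Ecko 1 was the highest of all 6 libraries in 9 of 10 members (15.6% of genes), and in the same 9 control 1 was also the lowest of all 6 (4.59% of genes), with Jun as the exception. Ecko 3 was the lowest ecko library in 9 of 10, against 34.9% of genes, and here Egr3 was the exception. The mean of the 10 members, each as log2 CPM around its own mean, was -0.67, -0.20 and -0.03 in controls 1 to 3, against 0.86, 0.24 and -0.20 for ecko 1 to 3. Ecko 3 thus lay below control 3 and within the range of the controls.

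**Figure D1:**
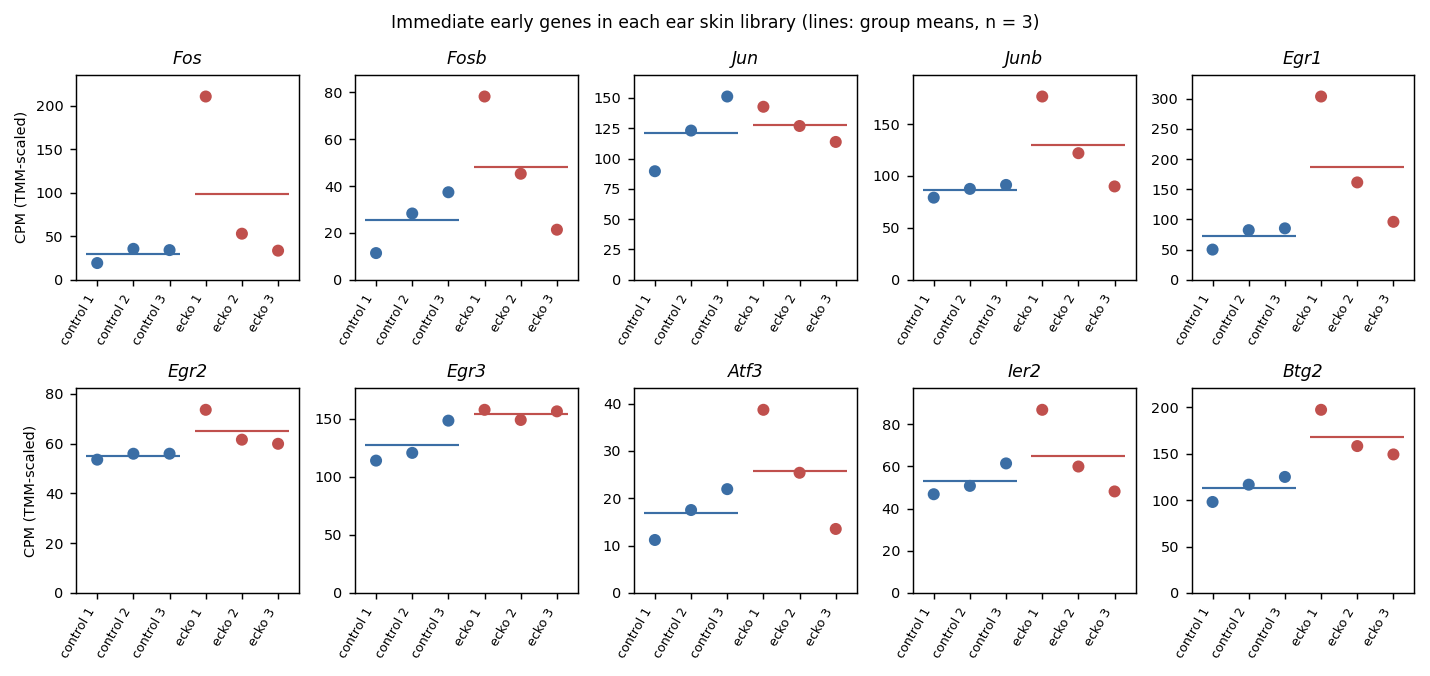
CPM (TMM-scaled) of each member in the 3 control (blue) and 3 ecko (red) libraries, with a line at each group mean (n = 3) and each vertical axis from 0. Ecko 1 stands highest in 9 of 10 panels and control 1 lowest in all 10.

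Fos and Fosb, whose proteins are the short-lived partners of Jun proteins in AP-1, had the widest range between libraries. Fos (Entrez 14281, chr12:85473890-85477274) was at 19.2, 35.5 and 34.1 CPM in controls 1 to 3 and at 211, 52.96 and 33.4 CPM in the ecko libraries 1 to 3. Ecko 1 had 5.94 times the highest control and 3.98 times the next ecko library, while ecko 3 lay below 2 of the controls. On the log2 scale the difference for Fos was 1.74 (SE 0.58), and it did not pass the threshold of 0.05 (edgeR adjusted p = 0.195). Without ecko 1 it was 0.55 (SE 0.26, edgeR adjusted p = 0.443).

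Fosb (Entrez 14282, chr7:19302696-19310118) was at 11.4, 28.3 and 37.4 CPM in controls and at 78.3, 45.3 and 21.4 CPM in ecko skin. The groups overlapped, as ecko 3 lay below 2 of the controls. Its log2 fold change was 0.91 (SE 0.46, edgeR adjusted p = 0.388), and with control 1 and ecko 1 both left out it was 0.02 (SE 0.30).

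The Jun genes encode the partners that AP-1 dimers share. Junb (Entrez 16477, chr8:84976909-84978748) was at 79.1, 87.5 and 91.3 CPM in controls and at 177, 122 and 89.9 CPM in ecko skin, so that 2 ecko libraries were above all controls and ecko 3 was not. For Junb the log2 fold change was 0.59 (SE 0.19, edgeR adjusted p = 0.190), and 0.30 (SE 0.12) without ecko 1. Exons of Junb overlap those of Prdx2, a peroxiredoxin gene on the other strand, and no strand setting is given, so reads in the overlap could not be told apart. Prdx2 had 238 to 250 CPM in controls and 218 to 231 CPM in ecko skin, with its highest ecko value in ecko 1.

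Jun (Entrez 16476, chr4:95049036-95052222) showed the least difference between the groups, at 89.5, 123 and 151 CPM in controls and 143, 127 and 114 CPM in ecko skin. The highest value was in control 3 and the lowest in control 1, so the controls spanned the ecko libraries. Jun had a log2 fold change of 0.08 (SE 0.16, edgeR adjusted p = 0.876), and its sign changed to -0.01 without ecko 1 and to -0.10 without control 1. An antisense gene, Junos, shares exon sequence with Jun and has no row of its own in the table. The ratio of Fos to Jun CPM was 0.214, 0.289 and 0.225 in controls, 1.48 in ecko 1, and 0.417 and 0.294 in the other ecko libraries.

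The EGR genes encode zinc finger transcription factors that bind GC-rich sites, and all 3 had every ecko library above every control. This held for 4 of the 10 members, the other being Btg2, and for 10.2% of all genes tested. Egr1 (Entrez 13653, chr18:34861207-34864956) was at 49.9, 82.2 and 85.2 CPM in controls and at 304, 161 and 96.0 CPM in ecko skin. The ecko libraries differed from each other by 3.17 times, and the lowest of them was close to the highest control. The log2 fold change was 1.37 (SE 0.36, edgeR adjusted p = 0.108). It was 0.83 (SE 0.25, edgeR adjusted p = 0.246) without ecko 1 and 1.68 (SE 0.28, edgeR adjusted p = 0.0436) without ecko 3, and it passed in none of the other 5 fits that left out 1 library.

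Egr2 and Egr3 differed much less between libraries than Egr1. Egr2 (Entrez 13654, chr10:67534469-67542188), a factor first known from hindbrain and Schwann cells, was at 53.5, 55.9 and 55.9 CPM in controls and at 73.5, 61.5 and 59.9 CPM in ecko skin. Its log2 fold change was 0.24 (SE 0.08, edgeR adjusted p = 0.212), and 0.14 (SE 0.07) without ecko 1. Both groups were tight apart from ecko 1.

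Egr3 (Entrez 13655, chr14:70077317-70082613), which is known as a target of VEGF signalling in endothelial cells, was at 114, 120 and 148 CPM in controls and at 158, 149 and 156 CPM in ecko skin. Here the ecko libraries agreed within 1.06 times, and control 3 was close to them. Egr3 had a log2 fold change of 0.27 (SE 0.09, edgeR adjusted p = 0.195), and 0.40 (SE 0.06, edgeR adjusted p = 0.0140) without control 3. The ratio of Egr1 to Egr3 CPM was 0.439 to 0.682 in controls and 1.93, 1.08 and 0.615 in ecko 1 to 3.

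Atf3 and Ier2 also had their lowest value in control 1 and their highest in ecko 1, with overlapping groups. Atf3 (Entrez 11910, chr1:191170296-191183333), a stress-induced factor of the ATF and CREB family, was at 11.2, 17.5 and 21.9 CPM in controls and at 38.7, 25.4 and 13.5 CPM in ecko skin. Ecko 3 lay below 2 controls, and the log2 fold change was 0.61 (SE 0.34, edgeR adjusted p = 0.431). Leaving out control 1 and ecko 1 gave -0.02 (SE 0.26).

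Ier2 (Entrez 15936, chr8:84661331-84662852), which encodes a nuclear protein induced by growth factors, was at 46.8, 50.7 and 61.4 CPM in controls and at 86.7, 59.9 and 48.1 CPM in ecko skin. Only ecko 1 was above every control. For Ier2 the log2 fold change was 0.29 (SE 0.19, edgeR adjusted p = 0.511), and 0.03 (SE 0.13) without ecko 1.

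Btg2, an antiproliferative gene that is also a p53 target and whose product promotes mRNA deadenylation, was the 1 member of 10 that passed the test, where 1.76% of all genes tested were called (0.686% higher and 1.08% lower in ecko skin). Btg2 (Entrez 12227, chr1:134074865-134079155) was at 97.9, 117 and 125 CPM in controls and at 197, 158 and 149 CPM in ecko skin. All ecko libraries were above all controls, by 1.19 times between the nearest pair, which was ecko 3 and control 3. Its mean level rose from 113 ± 13.8 CPM in controls to 168 ± 25.5 CPM (SD, n = 3), a log2 fold change of 0.57 with an SE of 0.12 (edgeR adjusted p = 0.0422). The call was lost in 5 of the 6 fits that left out 1 library (edgeR adjusted p = 0.0868 without control 1, 0.106 without control 2, 0.136, 0.111 and 0.0629 without ecko 1, 2 and 3) and was kept without control 3 (edgeR adjusted p = 0.0291). The log2 fold change stayed between 0.44 and 0.65 in these 6 fits. Across the table these fits called 0.353%, 0.307% and 1.10% of genes higher without control 1, 2 and 3, and 0.160%, 0.147% and 0.433% without ecko 1, 2 and 3. DESeq2, which called 1.27% of genes higher, gave Btg2 an adjusted p = 7.77e-05, and limma-voom, which called 0.558%, gave 0.0482. With the replicate number as a block (0.424% of genes called higher) the edgeR adjusted p = 0.0920.

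No member was called lower by edgeR or DESeq2, and 0 were lower at an unadjusted edgeR p under 0.05. At that level 6 of 10 members were higher, against 7.41% of all genes tested. The median log2 fold change of the 10 members was 0.58, against -0.00 over all genes. It was 0.28 without ecko 1, 0.44 without control 1 and 0.15 without both, and in none of these 3 fits did a member pass. With both left out (a fit added with the values known), 7 of 10 log2 fold changes were above 0, those of Jun (-0.19), Ier2 (-0.05) and Atf3 (-0.02) were not, and Btg2 (0.35, SE 0.07) and Egr1 (0.62, SE 0.20) had an unadjusted edgeR p under 0.05. In that fit 0.0938% of genes were called higher.

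**Figure D2:**
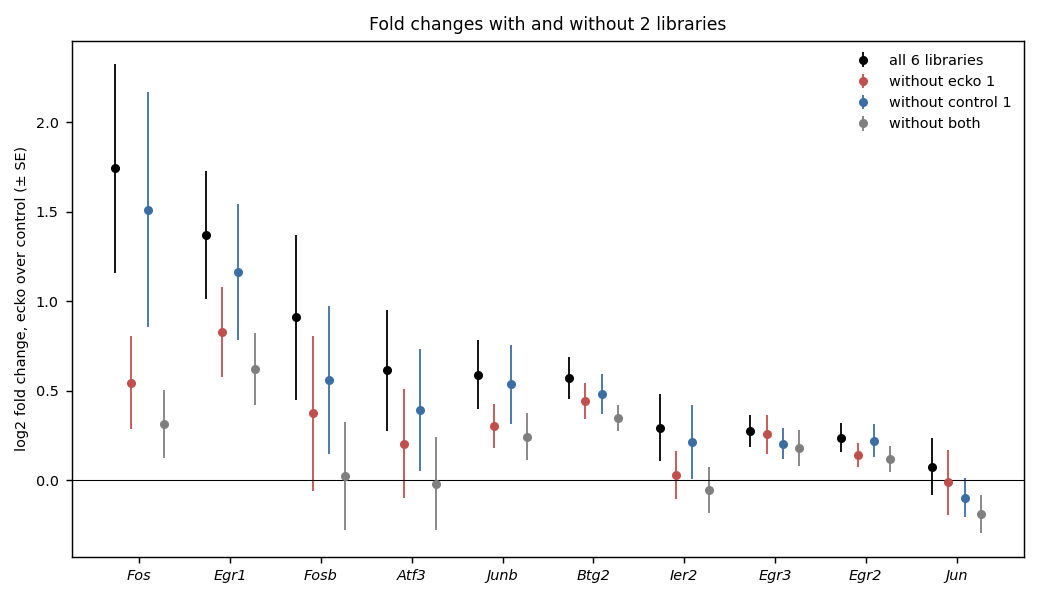
Log2 fold change (ecko over control) with its standard error for each member, from all 6 libraries (black), without ecko 1 (red), without control 1 (blue) and without both (grey). The Fos value moves from 1.74 to 0.55 without ecko 1, while that of Btg2 moves from 0.57 to 0.44.

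The spread between libraries of 1 group was high for most members. The standard deviation of log2 CPM within groups was 1.04 for Fos, 0.92 for Fosb, 0.66 for Egr1 and 0.64 for Atf3, which placed these 4 at the 99.6, 99.4, 98.7 and 98.6 percentile of all genes tested. Junb (92.9) and Ier2 (92.0) were also above the 90th percentile, followed by Jun (89.4), Btg2 (77.7), Egr3 (63.7) and Egr2 (50.9). The members with the largest fold changes were thus also those that differed most between libraries of the same genotype.

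**Figure D3:**
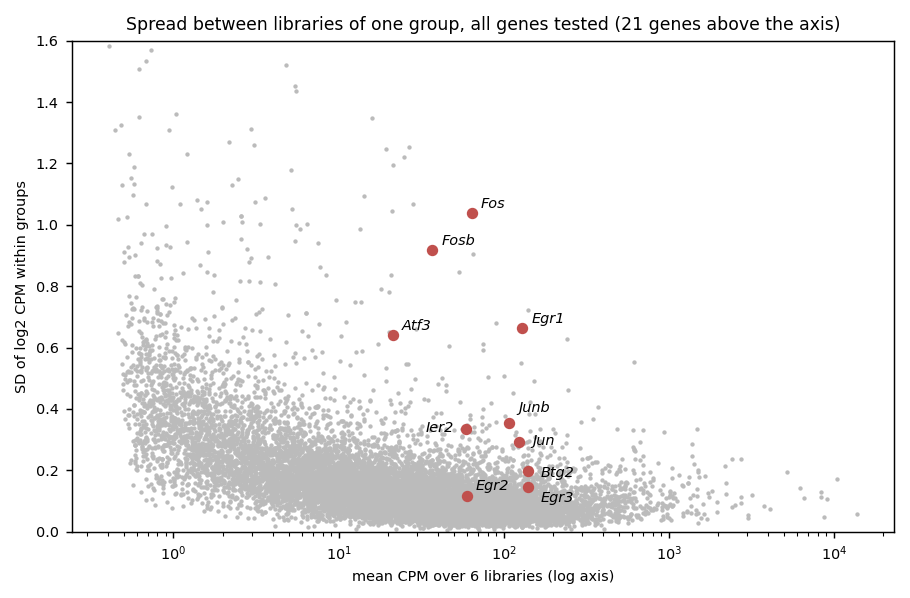
Standard deviation of log2 CPM within groups against the mean CPM (log axis) of each gene tested (grey) and the 10 members (red); 21 genes lie above the axis. Fos, Fosb, Egr1 and Atf3 lie far above genes of like level, and Egr2 (0.12) lies among them.

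The members lay differently in the libraries read as male and in the 1 library per group read as female. Reads from 4 Y-linked genes marked control 3 and ecko 3 as female (24 and 36 reads) and the others as male (3712 to 4390 reads). Both male ecko libraries were above both male controls in 10 of 10 members, as in 22.5% of genes tested. Among females, with 1 library per group, ecko 3 was above control 3 in Egr1, Egr2, Egr3 and Btg2, 4 of 10 members, as in 49.4% of genes. In the male libraries alone Btg2 had a log2 fold change of 0.73 (SE 0.13, edgeR adjusted p = 0.0526) and Egr1 1.82 (SE 0.32, edgeR adjusted p = 0.0581), and no member passed (0.557% of genes were called higher). With a sex term Btg2 had 0.57 (edgeR adjusted p = 0.0599, with 0.686% of genes called higher). The interaction of genotype and sex passed for 0 of 10 members and for 0.0336% of genes. At an unadjusted edgeR p under 0.05 the fold change was lower in the female pair for 7 of 10 members (Fos, Egr2 and Btg2 were the exceptions), against 3.08% of genes. Since each female library is also replicate 3, sex and the single library cannot be told apart. The interaction was fitted after the data were seen, and for every member it rests on the same 1 female library per group.

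Levels of different genes were compared per kilobase of exon in GENCODE M21. In controls Btg2 had the highest level at 41.2 ± 5.03 CPM per kilobase (SD, n = 3), followed by Jun at 38.0 ± 9.68, Junb at 37.4 ± 2.73, Ier2 at 34.8 ± 4.96 and Egr3 at 28.9 ± 4.14 CPM per kilobase. The first 4 did not differ beyond their spread. Egr2 (16.2 ± 0.405), Egr1 (16.2 ± 4.36) and Fos (12.6 ± 3.85) formed a middle range, and Atf3 (7.84 ± 2.51) and Fosb (4.11 ± 2.11 CPM per kilobase) were lowest. In ecko skin Egr1 and Fos had means of 41.7 ± 23.7 and 42.1 ± 41.4 CPM per kilobase. The spread of Fos covered the ecko means of all other members. That of Egr1 covered all but those of Atf3 (12.0) and Fosb (7.74 CPM per kilobase).

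Other immediate early genes showed a weaker form of the pattern. Their list of 42 genes leaves out the members and was chosen with earlier results of these data known. Of 40 tested, 1 rose, 1 fell and 31 lay above 0 (0.686%, 1.08% and 49.5% of all genes tested). At an unadjusted edgeR p under 0.05, 12 were higher (7.41% of all genes) and 1 was lower. The median log2 fold change was 0.16 (0.07 without ecko 1 and 0.03 without both ecko 1 and control 1). Control 1 was the lowest control and ecko 1 the highest ecko library in 18 of the 40, against 11.7% of all genes tested. Nfkbiz, which encodes the NF-kB cofactor I kappa B zeta, rose from 48.6, 41.2 and 49.7 CPM to 88.7, 88.5 and 66.8 CPM (log2 fold change 0.81, SE 0.12, edgeR adjusted p = 0.00968). All ecko libraries were above all controls, and control 1 and ecko 1 did not stand apart from their groups. Without ecko 1 Nfkbiz did not pass (log2 fold change 0.74, SE 0.13, edgeR adjusted p = 0.0556), and no gene of the list was called in either direction.

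Genes of the list with the pattern of the members were named after their values were seen. Dusp1, a phosphatase gene that ends MAP kinase signalling, was at 54.2, 79.2 and 79.6 CPM in controls and at 140, 67.0 and 63.8 CPM in ecko skin. Zfp36, whose product tristetraprolin destabilises mRNAs, was at 59.8, 75.5 and 62.6 CPM in controls and at 124, 74.2 and 72.5 CPM in ecko skin. In both genes ecko 1 stood above the other 5 libraries, which did not separate by group. Egr4 and Npas4, members with neuronal roles, were too low to test.

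**Figure D4:**
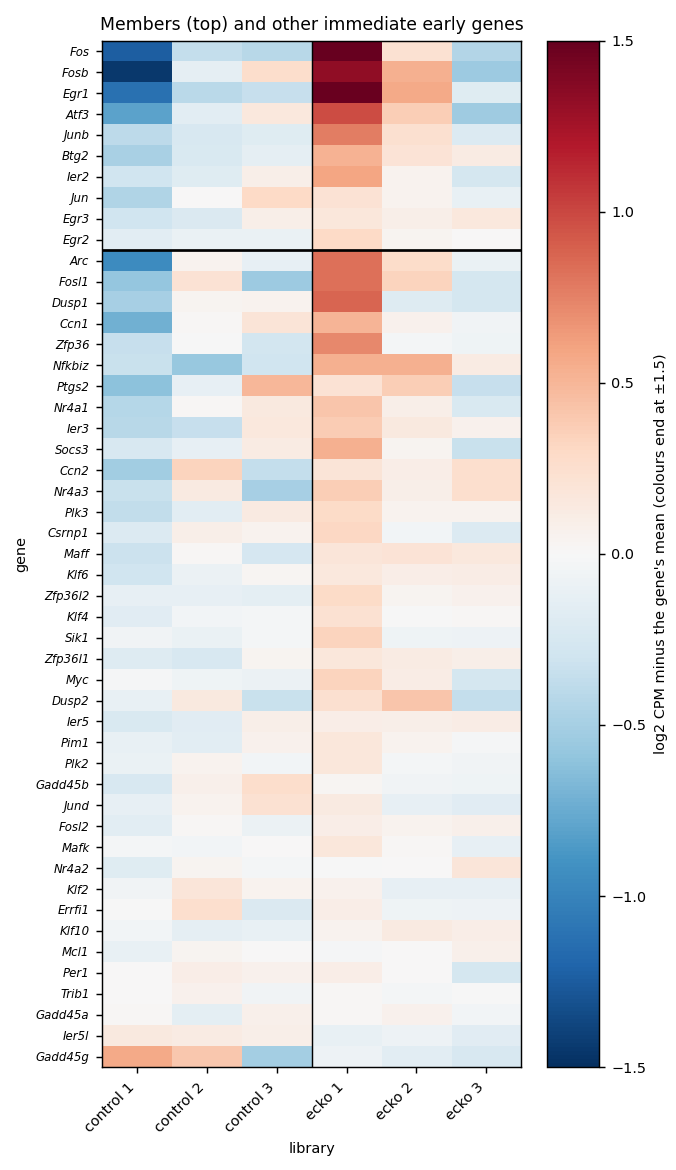
Log2 CPM minus each gene's mean in the 6 libraries for the 10 members (above the line) and 39 of the 40 other immediate early genes tested, sorted by the difference of ecko 1 and control 1. Among members the ecko 1 column is highest and the control 1 column lowest for 9 genes, and the contrast fades down the second block.

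No gene of the ERK feedback or upstream lists passed with edgeR or DESeq2. ERK feedback genes are induced by that kinase pathway and limit it. Of these 16 genes, 13 lay above 0 (49.5% of all genes tested), with a median log2 fold change of 0.09. At an unadjusted edgeR p under 0.05, 4 were higher (7.41% of all genes) and 0 lower. The smallest p among them belonged to Epha4, an ephrin receptor gene (0.25, SE 0.07, edgeR adjusted p = 0.114), and Dusp5, an ERK phosphatase gene (0.58, SE 0.17, edgeR adjusted p = 0.143). In both every ecko library was above every control, as in 10.2% of all genes tested. The 18 genes of serum response factor, its ETS partners, MEF2 factors, CREB and the kinases above them had a median of -0.00 and 1 higher and 3 lower at that level, with Elk3 at -0.25 (SE 0.07, edgeR adjusted p = 0.152) and Mef2c at -0.26 (SE 0.08, edgeR adjusted p = 0.156). Without control 1 Elk3 was at -0.31 (SE 0.07) and Mef2c at -0.17 (SE 0.07). Both are also expressed by endothelial cells, whose 11 marker genes all lay below 0 with a median of -0.69. With edgeR 8 of them were called lower, as were 1.08% of all genes tested. DESeq2 called 10 of them lower (231 over the whole table), and edgeR without ecko 1 called 4 (50 over the whole table). What part endothelial or other cells have in the values of Elk3 and Mef2c was not tested. In bulk tissue, fewer cells of a type and less RNA per cell cannot be told apart.

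Relatives of the members did not pass with edgeR or DESeq2 either. Among 4 BTG and TOB family genes, which are related to Btg2, the values ran from -0.10 to 0.09, and Btg1 was at 0.09 (SE 0.07) and Tob2 at -0.10 (SE 0.06). Of 17 other AP-1 and ATF family genes, 12 were above 0 (49.5% of all genes tested) and the median was 0.07. At an unadjusted edgeR p under 0.05, 3 were higher (7.41% of all genes). No BTG, TOB or NAB gene reached that level. The smallest p were those of Bach1, a repressor that pairs with small Maf proteins (0.21, SE 0.06, edgeR adjusted p = 0.123), and Fosl2, a Fos family gene that is also on the list of other immediate early genes (0.15, SE 0.06, edgeR adjusted p = 0.278). The EGR corepressor genes Nab1 and Nab2 were at 0.03 (SE 0.08) and -0.09 (SE 0.09).

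In the p53, integrated stress response and heat shock lists no gene passed with edgeR or DESeq2. At an unadjusted edgeR p under 0.05 there were 1 lower p53 target, 3 higher and 3 lower stress response genes and 0 heat shock genes. Of all genes tested, 7.41% were higher at that level. For the 15 p53 target genes tested the median was -0.06 and the smallest p belonged to Ccng1 (-0.25, SE 0.10, edgeR adjusted p = 0.284) and Aen (-0.13, SE 0.07, edgeR adjusted p = 0.418). For 13 integrated stress response genes it was -0.06, with Slc7a11 at 0.38 (SE 0.11, edgeR adjusted p = 0.152) and Trib3 at -0.33 (SE 0.11, edgeR adjusted p = 0.189). For 12 heat shock genes it was -0.02, with Hspa5 at 0.17 (SE 0.09) and Hspa1a at -0.09 (SE 0.07). Hspa1a, the inducible chaperone gene, was at 104, 101 and 110 CPM in controls and at 108, 92.5 and 94.8 CPM in ecko skin. The mean level of the heat shock list was 0.02 in control 1 and 0.04 in ecko 1, and that of the stress response list 0.08 and -0.01.

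Some markers of other cell types also set control 1 or ecko 1 apart. The 10 keratinocyte markers, which define skin, were high in all libraries, at 27430 to 33909 CPM in sum, with the highest sum in ecko 1. The 7 macrophage markers summed to 340 CPM in control 1, against 497 to 563 CPM in the other 5 libraries. All 7 were lowest there among controls, as were 34.7% of all genes tested. Their log2 fold changes were all above 0 (49.5% of all genes), with a median of 0.23 (0.07 without control 1). Fibroblast markers summed to 25549 CPM in control 1, against 30793 and 31347 CPM in the other controls and 23943 to 28134 CPM in ecko skin. All 6 were also lowest in control 1 among controls, against the same 34.7% of genes. The 6 muscle markers were highest in control 1, at 8492 CPM in sum against 4751 to 6144 CPM elsewhere. All 6 had a log2 fold change below 0, where 49.5% of all genes tested lay above 0. With edgeR 0 of the 6 passed, and 1.08% of genes were called lower. In 5 of them every ecko library lay below every control, against 21.0% of genes without overlap in either direction. The median log2 fold change of the 6 was -0.42 (-0.21 without control 1). Neutrophil markers summed to 33.9 to 54.4 CPM in controls and to 115, 183 and 43.9 CPM in ecko 1 to 3, with the defining gene Ly6g at 0 in 5 libraries. The 5 neutrophil markers tested all lay above 0, and 3 were higher at an unadjusted edgeR p under 0.05 (7.41% of all genes). With edgeR, 1 marker outside the endothelial list passed, the keratinocyte gene Krt1 (log2 fold change 0.76, SE 0.15, edgeR adjusted p = 0.0376). DESeq2 also called the keratinocyte factor gene Trp63 (DESeq2 adjusted p = 0.0108, edgeR adjusted p = 0.115) and the neutrophil receptor gene Cxcr2 (DESeq2 adjusted p = 0.0328, edgeR adjusted p = 0.0961) higher. Their part in the values of the members was not tested.

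**Figure D5:**
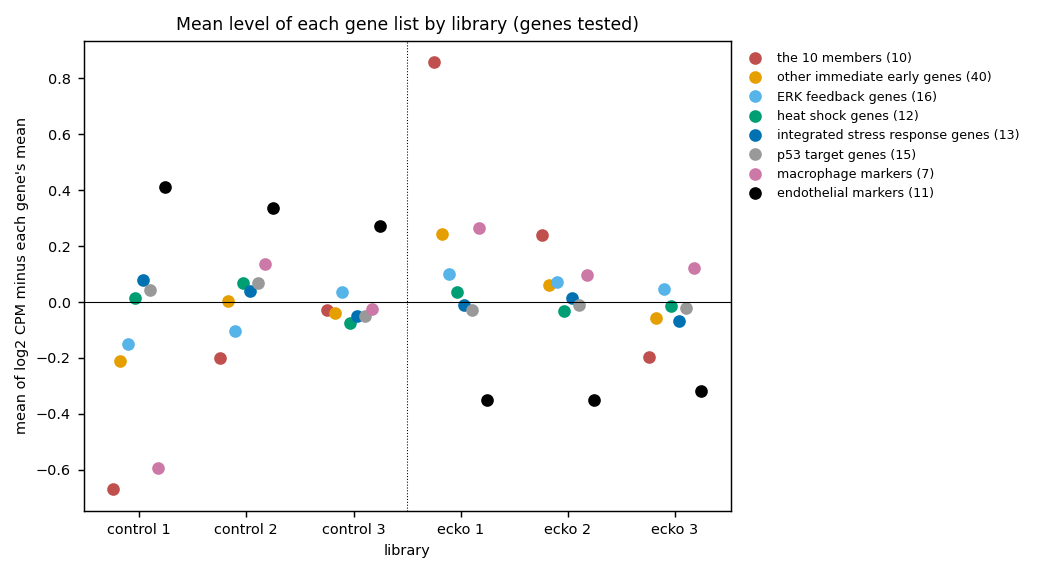
Mean of log2 CPM minus each gene's mean, by library, for the members and 7 other lists (number of genes tested in brackets). The members run from -0.67 in control 1 to 0.86 in ecko 1, macrophage markers are low in control 1 (-0.59), and heat shock and stress response lists stay near 0.

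Other facts of the libraries bear on all of these values. The libraries held 17255416 to 18054696 estimated reads each, and each member had at least 194 reads in every library. For most members counting error was small beside the spread between libraries. The controls of Egr2 (927 to 986 reads) differed no more than counting error allows, and the ecko libraries of Egr3 (2689 to 2794 reads) not much more. Kdr, the deleted gene, had 475 to 595 reads in controls and 37 to 58 in ecko libraries, with ecko 1 the highest of the latter. Over all genes 102 rose and 160 fell.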

How the data were processed

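RNA from snap-frozen ear skin was isolated with Trizol and poly(A)-selected, per the labels' protocols. The authors deposited expected counts (estimated reads per gene) on which no scaling had been done, judged from the values. Of the values, 10.5% were not whole. RSEM 1.3.1, HISAT2 2.2.1, Bowtie2 2.4.5 and the build GRCm38.p6 are listed, without roles, in the submitters' processing notes, and the annotation release was not given in the sources used here. RSEM splits reads between similar genes by estimate.

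Counts were rounded, filtered with filterByExpr (minimum count 10), scaled by TMM and tested with the edgeR 4.0.16 quasi-likelihood test (R 4.3.3). The model held all 6 libraries and no term but genotype. P-values were Benjamini-Hochberg adjusted over 14866 genes at a threshold of 0.05. SE is the log2 fold change divided by the square root of F. The script was tested on simulated data. Groups came from the sample titles. Replicates varied 4.89 to 14.8 times as much as sampling gives, so no library repeats another. Libraries with at least 500 Y-linked reads were taken as male.

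Members and gene lists were chosen with earlier results of these data known. Named were all members, each gene of another list that passed, or otherwise the 2 with the smallest p, and the 5 genes most like the members. The values of 1 gene named by this rule are not reported here. Alternatives were upper-quartile and RLE scaling, DESeq2 1.42.0, limma-voom (limma 3.58.1), 2 other filters, a replicate block, a sex term, males only, each library left out and a threshold of 0.1. A fit without control 1 and ecko 1 and an interaction of genotype and sex were added after the data were seen. Promoters came from RefSeq (GRCm38.p6) and were matched for 7 members. The promoter set used held no entry for Ier2, Egr3 and Egr1, of which only Egr1 lies on chromosome 18. Older symbols were matched through RefSeq synonyms, which left Btg4 and Trac unmatched. Figures were drawn with matplotlib 3.10.9.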

Additional observations from a re-analysis of the deposited data

Results flagged for a closer look

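In 6 members both male ecko libraries were above both male controls, while the female ecko library was below the female control. In Fos and Junb the female pair was nearly level. The ratio of ecko 3 to control 3 was 0.981 for Fos, 0.572 for Fosb, 0.752 for Jun, 0.984 for Junb, 0.617 for Atf3 and 0.784 for Ier2. The ratio of the male means was 4.83 for Fos, 3.12 for Fosb, 1.27 for Jun, 1.79 for Junb, 2.23 for Atf3 and 1.504 for Ier2. The difference was tested as an interaction of genotype and sex, added after the data were seen, and passed for no member: the smallest edgeR adjusted p was 0.663, for Atf3 (-1.85, SE 0.45), and that of Fosb was 0.733 (-2.44, SE 0.69). At an unadjusted edgeR p under 0.05 it was found in 7 of the 10 members, all with the lower fold change in the female pair, and in 892 of 14866 genes in either direction, of which 458 (3.08% of all) had that direction. After adjustment 5 genes (0.0336%) passed. Each sex of each group holds 1 or 2 libraries.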

How the results depend on the processing

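Of the planned refits of single members, 138 kept direction and call, 8 lost the Btg2 call, and 2 each gained a call (Egr1 without ecko 3, Egr3 without control 3) or changed sign (Jun, below). The number of members called higher was 0 with the replicate block, the sex term and males only, and 0 to 2 with 1 library left out; with control 1 and ecko 1 both left out it was 0. That fit reversed Jun (-0.19), Atf3 (-0.0202) and Ier2 (-0.0548), and called 14 genes higher and 38 lower in the whole table. Jun ran from -0.10 (without control 1) and -0.01 (without ecko 1) to 0.27 with single libraries left out. Over all genes, 22 to 165 were called higher and 34 to 242 lower with 1 library left out, 195 were called higher with DESeq2, 63 higher with the replicate block, 91 lower in males only, and 182 higher and 269 lower at a threshold of 0.1. With the replicate block Btg2 had 0.57 (edgeR adjusted p = 0.0920). Nothing in the labels says what the replicate numbers mark. Same-numbered libraries deviated together with r = 0.054, 0.059 and 0.167 across genes. For libraries of unlike number r ran from -0.103 to 0.051. The pair numbered 3, with r = 0.167, is also the female pair. The cause of these changes was not tested. Scaling moved the median gene by at most 0.02 log2 units.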

Other observations

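The genes whose levels over the 6 libraries lay nearest to the mean profile of the members were sought among 12252 other genes with a mean of at least 5 CPM, by the root mean square difference of log2 CPM around each gene's mean. They were Gm4070 (0.13), the immunoproteasome gene Psmb9 (0.14), the EGF receptor ligand gene Hbegf (0.16), the leukocyte integrin gene Itgal (0.17) and the kallikrein gene Klk6 (0.17). Hbegf was at 8.02, 10.7 and 11.9 CPM in controls and at 16.9, 15.1 and 10.96 CPM in ecko skin, with ecko 3 within the range of the controls (log2 fold change 0.49, SE 0.18, edgeR adjusted p = 0.240). Klk6 was at 13.2, 17.1 and 19.7 CPM in controls and at 33.3, 27.2 and 23.2 CPM in ecko skin, where the groups did not overlap, as in 21.0% of all genes tested (log2 fold change 0.74, SE 0.16, edgeR adjusted p = 0.0598). Measured the same way, Junb (0.14) and Atf3 (0.18) lay nearest to the mean profile among the members themselves, and Fos (0.63) lay farthest.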
